A study of Mus musculus with 15 samples.

Results

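The genes described here encode the proteins of the cytosolic ribosome. They were taken from the platform annotation as the genes with a single symbol of the form Rpl or Rps followed by a number, without the Rps6k kinases, together with the stalk proteins Rplp0, Rplp1 and Rplp2 and with Rpsa. Of 12393 genes measured, 48 met the rule: 20 proteins of the small subunit, 20 of the large subunit, 2 of the stalk (Rplp0 and Rplp2) and 6 paralogues (Rps27l, Rps4l, Rpl3l, Rpl7l1, Rpl22l1 and Rpl39l). They were read by 100 probe sets, and where a gene had several, the brightest on average, here called its leading probe set, stood for it. A further 102 probe sets carried a symbol of this family together with other symbols, as is usual for genes with many processed pseudogenes, and 30 symbols of the family, among them Rplp1, were found only there. These genes have no value of their own.

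The values are log2 signals from 15 Affymetrix arrays of mRNA from mammary epithelial cells, purified from digested glands of female C57BL/6 mice. Virgin mice aged 9 weeks and mice at day 21 of pregnancy had been injected intraperitoneally with PBS as the control, with AzaC (5-azacytidine, an inhibitor of DNA methylation) or with VPA (valproic acid, an inhibitor of histone deacetylases). The groups held 2 virgin PBS, 3 virgin AzaC, 2 virgin VPA, 2 pregnant PBS, 3 pregnant AzaC and 3 pregnant VPA arrays. Doses, injection times and whether each array came from its own mouse are not given in the sources used here, so p-values measure only the spread between these samples, which may be technical.

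A ribosome is built from ribosomal RNA and one copy of nearly every ribosomal protein, so cells make these proteins in matched amounts and their mRNAs are among the most abundant of all. Many of these mRNAs start with a run of pyrimidines, the 5′ terminal oligopyrimidine tract or TOP motif, through which their translation is raised or held back by mTORC1 signalling. The lactating mammary gland is a secretory tissue in which protein synthesis expands around birth. Paralogues are second genes that encode near copies of a ribosomal protein, and several are restricted to one tissue: Rpl3l to striated muscle, and Rpl39l to testis.

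The start regions of the genes on which the results turn are given first, because the TOP motif lies there. Each is the window of 30 bases around an annotated transcript start in RefSeq (GRCm38.p6), with 15 bases before the start and 15 from it on, read 5′ to 3′ on the gene's strand. Capitals mark runs of at least 6 bases that are all C or T.
Rpl35, chr2:39005117-39005146, minus strand: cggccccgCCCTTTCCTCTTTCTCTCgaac
Rps10, chr17:27635230-27635259, minus strand: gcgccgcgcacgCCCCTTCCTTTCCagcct
Rps6, chr4:86857353-86857382, minus strand: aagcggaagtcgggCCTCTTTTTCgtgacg
Rps27, chr3:90213634-90213663, minus strand: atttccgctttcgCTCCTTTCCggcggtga
Rplp2, chr7:141447636-141447665, plus strand: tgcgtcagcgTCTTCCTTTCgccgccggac
Rpl12, chr2:32961697-32961726, plus strand: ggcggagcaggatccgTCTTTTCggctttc
Rpl27, chr11:101442230-101442259, plus strand: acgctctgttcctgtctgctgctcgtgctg
Rps27l, first start, chr9:66946071-66946100, plus strand: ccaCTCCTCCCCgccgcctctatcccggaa
Rps27l, second start, chr9:66946398-66946427, plus strand: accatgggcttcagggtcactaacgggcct
Rpl7l1, chr17:46782642-46782671, minus strand: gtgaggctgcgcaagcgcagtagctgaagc
Rpl35 and Rps10, which had among the largest differences below, carried runs of 18 and 13 pyrimidines, while Rpl27, which lay near them in the tests, had no run over 5 and the paralogue Rpl7l1 none over 2. Rps27l has 2 annotated starts: at the first a run of 9 lies before the start base, and at the second no run exceeds 4.

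RefSeq promoters were found for 42 of the 48 genes. A run of at least 6 C or T on the gene's strand lay in the 30-base window of 24 of 37 ribosomal protein genes that are not paralogues (64.9%), in 3 of 5 paralogues, and in 33.5% of 9882 genes with a promoter. In the 300 bases from 250 before to 50 after the start, searched on both strands, CCGGAAG, the core recognised by ETS family factors, was present in 19 of 37 (51.4%) and in 16.4% of all genes. AAGATGGC, a core of the YY1 motif, was present in 3 of 37 (8.11%) against 4.39%, and TATAAA, the TATA box, in 5 of 37 (13.5%) against 11.9%. The number of annotated starts was 1.16 per gene for the 37 and 1.27 over all genes. These are matches of letters in annotated windows, and no match says only that the letters are not there.

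Several features of the whole series touch the results. The milk protein genes Csn2 and Wap had levels from 13.69 to 14.03 and from 13.41 to 14.18 over all 15 arrays, virgin ones included, so the stage labels are used below as labels only. The summed picture of cell type markers held other cells beside epithelium: the mean level was 12.37 to 13.41 for 7 luminal markers, 9.47 to 11.84 for 5 fibroblast markers and 10.92 to 13.67 for 4 skeletal muscle markers, with no marker of these lists at 0. The luminal mean was 12.43 to 12.53 on the pregnant PBS arrays, 13.07 to 13.41 on the pregnant AzaC arrays and 13.17 to 13.33 on the pregnant VPA arrays. In the same order the fibroblast mean was 10.15 to 10.35, 10.66 to 11.52 and 10.77 to 11.84. The endothelium mean was 7.15 to 7.84, 8.10 to 8.91 and 8.14 to 8.93, and the macrophage mean 8.44 to 8.77, 9.03 to 9.28 and 9.15 to 9.50. The erythroid mean went the other way, at 4.46 to 5.12, 3.36 to 4.20 and 4.09 to 4.22. Their part in the results below was not tested. In such mixtures, fewer cells of a type and less RNA per cell cannot be told apart.

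The ribosomal protein genes lay at the top of the scale. Their median level, as the mean over 15 arrays, was 12.87, against 7.79 over all genes. A level over 12 was reached by 33 of the 48, but by only 283 of all 12393 genes (2.28%), and a level over 13 by 20 of them and by 92 of all genes (0.742%). The highest value in the whole table was 14.48, so these genes were read near the upper end of the scale, and how much of a change a probe set there can show was not tested. Levels of different genes come from different probe sets and are not molar amounts.

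The small subunit gene Rps29 had the highest level, with 14.01 and 14.16 on the virgin PBS arrays, 13.96, 14.06 and 14.14 with virgin AzaC, 14.03 and 14.14 with virgin VPA, 14.09 and 14.10 with pregnant PBS, 14.17, 13.98 and 14.20 with pregnant AzaC, and 14.09, 14.08 and 14.06 with pregnant VPA. All 15 arrays thus lay within 0.24, the narrowest range of the family, and the 6 groups overlapped. Rps28 (13.81), Rps2 (13.75), Rpl38 (13.71), Rpl37a (13.68) and Rpl41 (13.64) followed it. The lowest array of Rps29 (13.96) lay just above the highest of Rps28 (13.95). From Rps28 to Rpl41 the steps between neighbours are smaller than the ranges of the genes over the arrays, which were 0.29 for Rps28, 0.33 for Rps2, 0.26 for Rpl38, 0.45 for Rpl37a and 0.78 for Rpl41. Rps29 and these genes were all read by leading probe sets of the _x_at type, whose probes may also match other transcripts. In the whole family 15 leading probe sets were of the _x_at or _s_at type. What other transcripts add to these levels and ranges was not tested.

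Among the other small subunit genes, Rps4x (13.47), Rpsa (13.18), which was first described as a laminin receptor, Rps3 (12.80), which also has a role in DNA repair, and Rps19 (12.28), the gene most often mutated in Diamond-Blackfan anaemia, had high levels. Of the stalk, which recruits translation factors to the large subunit, Rplp2 had a level of 13.37 and Rplp0 of 13.28. Large subunit genes Rpl11 (11.75), whose product binds Mdm2 when ribosome assembly is disturbed, Rpl22 (11.89) and Rpl39 (12.14) lay lower.

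Some genes of the family were far down the scale. Of the genes that are not paralogues, Rps25 (7.94), Rpl12 (7.73), Rpl14 (6.37) and Rps27 (6.10) had levels under 8, and Rps6 (8.68), the substrate of S6 kinase, was just above it. Each has a place in nearly every ribosome, and whether their probe sets read the main transcript was not tested. The paralogues ranged from Rps27l (11.82) and Rpl22l1 (11.36) through Rpl7l1 (8.71), Rpl3l (7.43) and Rps4l (5.60) to Rpl39l (4.33), the lowest of all 48.

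**Figure D1:**
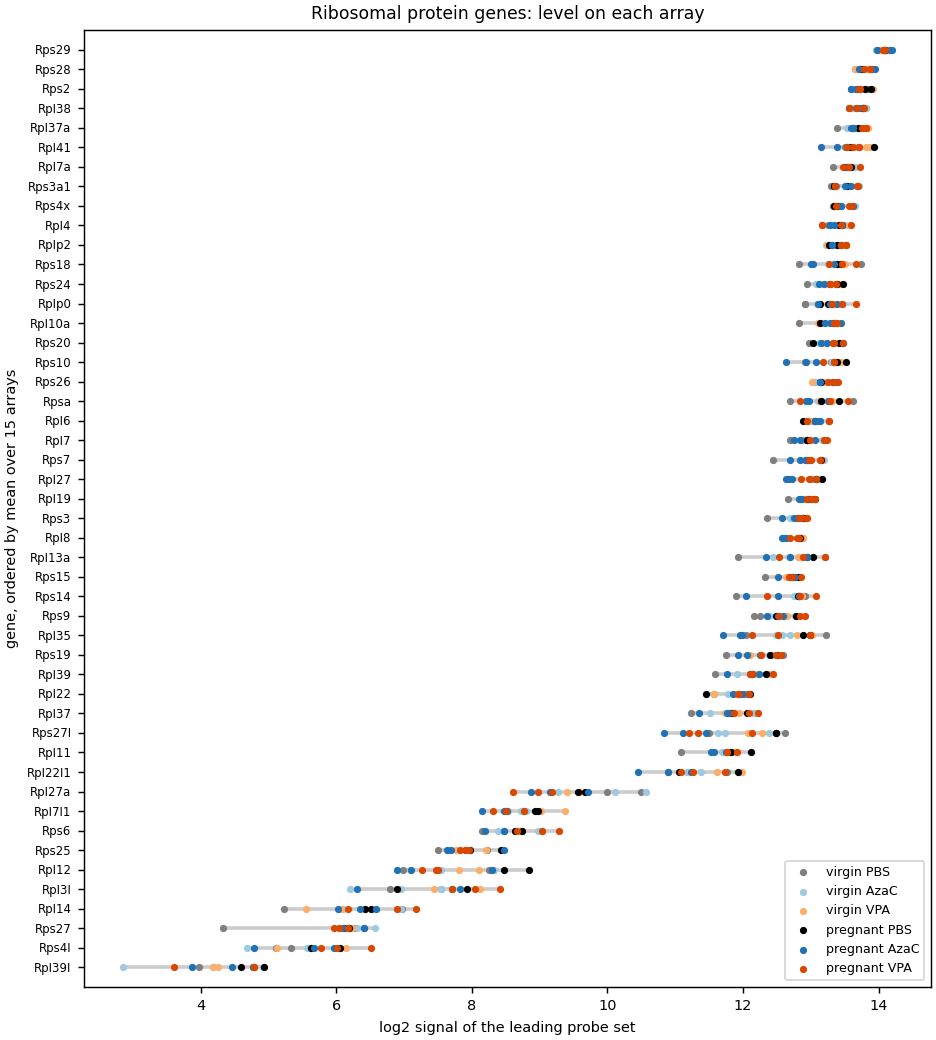
Log2 signal of the leading probe set (horizontal axis) of each of the 48 ribosomal protein genes, ordered by their mean over 15 arrays, with points for single arrays coloured by group and grey lines from the lowest to the highest array. The genes at the top are packed between 13 and 14.2 with narrow spans, and the dim genes at the bottom have spans of up to 2.24.

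The signals of the bright ribosomal protein genes covered narrow ranges. For the 33 with a level over 12 the median range over the 15 arrays was 0.53, from 0.24 for Rps29 to 1.51 for Rpl35, and the median standard deviation within groups was 0.13. For the 250 other genes with a level over 12 these medians were 1.18 and 0.27; the sets were not matched on level, and 20 of the 33 lay over 13, where the scale nears its end. The widest range of the family was that of Rps27 (2.24), whose probe set was dim: it read 4.33 on 1 virgin PBS array and between 5.97 and 6.57 on the other 14.

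Rpl3l, the paralogue of Rpl3 found in striated muscle, was lowest on the arrays where the muscle markers were lowest. Its values were 7.54 and 6.80 with virgin PBS, 6.21, 6.95 and 7.55 with virgin AzaC, 7.44 and 8.12 with virgin VPA, 7.93 and 6.89 with pregnant PBS, 6.30, 7.83 and 7.71 with pregnant AzaC, and 7.71, 8.05 and 8.42 with pregnant VPA. The mean of the 4 muscle markers Acta1, Ckm, Myh4 and Tnnt3 was 12.79 and 11.79, then 10.92, 12.22 and 13.12, then 12.43 and 12.97, then 12.96 and 11.70, then 12.07, 13.17 and 13.67, and then 13.37, 13.45 and 13.21 on the same arrays. The 5 arrays with Rpl3l under 7 were the 5 with the lowest muscle means, a pattern noticed after the values were seen. Among the other arrays the orders differed. The highest muscle mean (13.67) went with an Rpl3l of 7.71, and the highest Rpl3l (8.42) with a muscle mean of 13.21. Both readings come from the same libraries.

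The first question is whether AzaC changed these genes in mice labelled pregnant. With limma, 0 of 48 ribosomal protein genes passed an adjusted p of 0.05, against 7.57% of all genes (938 of 12393, 466 higher and 472 lower), and 7 of 48 had an unadjusted p under 0.05, against 26.2% of all genes. The differences leaned to one side: 35 of 48 lay below 0, against 46.6% of all genes, and the median of the 48 was -0.20, while that of all genes was 0.04. In 19 of 48 (39.6%) all 3 AzaC arrays lay below both PBS arrays, against 20.9% of all genes, and in 2 (Rpl6 and Rps4x, 4.17%) all lay above, against 23.5%. No test over the list was made. When all arrays were shifted to one median, the median of all genes moved from 0.04 to -0.06 and that of the ribosomal protein genes to -0.30, and the calls over all genes were then 417 higher and 666 lower.

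Rps27l, a paralogue of Rps27 and a known p53 target, had the largest difference. Its values were 12.48 on both pregnant PBS arrays and 11.11, 11.46 and 10.84 on the pregnant AzaC arrays. Every AzaC array thus lay over 1 below the controls, but its difference of -1.34 ± 0.37 (SE; 95% interval -2.16 to -0.53) narrowly missed the threshold (adjusted p = 0.051, limma). All 3 of its probe sets gave a like difference, from -1.34 to -1.29. Its virgin PBS arrays read 11.50 and 12.62, so the controls of the other stage differed from each other by nearly as much.

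Among small subunit genes the lowest p was that of Rps10, which is also mutated in Diamond-Blackfan anaemia. It read 13.52 and 13.38 with pregnant PBS and 12.93, 13.08 and 12.64 with pregnant AzaC. The groups did not overlap, and the difference was -0.57 ± 0.17 (SE; adjusted p = 0.0633). All 6 probe sets of Rps10 gave a lower AzaC mean, from -0.82 to -0.15. Of the 20 small subunit genes 13 lay below 0, with a median of -0.19. Rps19 (-0.37), Rps6 (-0.31), Rpsa (-0.23) and Rps3 (-0.17) were among those below, and Rps29 (0.02), Rps4x (0.14) and Rps27 (0.15) among those above. None of the 20 passed the threshold.

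Of the 20 large subunit genes 16 lay below 0, with a median of -0.18. Rpl35, a protein near the exit of the peptide tunnel, read 12.99 and 12.88 with pregnant PBS and 11.98, 11.95 and 11.71 with pregnant AzaC. These groups stood clear of each other, with a difference of -1.05 ± 0.31 (SE; 95% interval -1.74 to -0.37; adjusted p = 0.0636). The virgin PBS arrays of Rpl35 read 12.04 and 13.22, which lie further apart than the pregnant groups. Rpl27, another protein of the large subunit, read 13.16 and 13.08 with PBS and 12.67, 12.72 and 12.63 with AzaC, a small but even difference of -0.45 ± 0.14 (SE; adjusted p = 0.0749). Rpl12, at the base of the stalk, was at 8.48 and 8.84 with PBS and at 8.30, 7.11 and 6.89 with AzaC. Its AzaC arrays differed widely from each other, and the difference was -1.23 ± 0.48 (SE; adjusted p = 0.132). Rpl11 (-0.35), Rpl39 (-0.20), Rpl7 (-0.05) and Rpl22 (0.20) did not pass either, nor did the stalk genes Rplp0 (0.07) and Rplp2 (0.03).

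All 6 paralogues lay below 0 with AzaC, with a median of -0.48. Rpl7l1, the paralogue of Rpl7, read 8.97 and 8.93 with pregnant PBS and 8.47, 8.52 and 8.15 with pregnant AzaC, a difference of -0.57 ± 0.19 (SE; adjusted p = 0.0827). Rpl22l1 (-0.62), Rpl39l (-0.39), Rps4l (-0.36) and Rpl3l (-0.13) did not pass. The last 3 are dim, with levels under 8.

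How far these members stand from the threshold depended on settings. Rps27l, Rps10 and Rpl35 passed when arrays were shifted to one median (adjusted p = 0.0421, 0.0451 and 0.0475), without genes of a mean under 6 (0.0237, 0.0417 and 0.0331) and with the trend and robust options of eBayes (0.026, 0.0481 and 0.0363). With the difference between the 3′ and 5′ Gapdh control probe sets, a reading of RNA quality, as a covariate, Rpl27 (0.0428) passed too, beside Rps27l (0.0232), Rps10 (0.041) and Rpl35 (0.0137). Over all genes the calls in these 4 runs grew as well, from 938 to 1083, 1428 of 8826, 1309 and 1623. Of 15 alternatives, Rps27l passed in 6, Rps10 and Rpl35 in 5 each and Rpl27 in 1. Over them the adjusted p ranged from 0.0232 to 0.592 for Rps27l, from 0.0389 to 1 for Rps10, from 0.0137 to 0.907 for Rpl35 and from 0.0428 to 1 for Rpl27. Quantile normalization, the replicate block and leaving out either pregnant PBS array took none of the 4 past the threshold. The Gapdh difference was 0.09 and 0.47 on the pregnant PBS arrays and 0.85, -0.12 and 0.20 on the pregnant AzaC arrays.

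**Figure D2:**
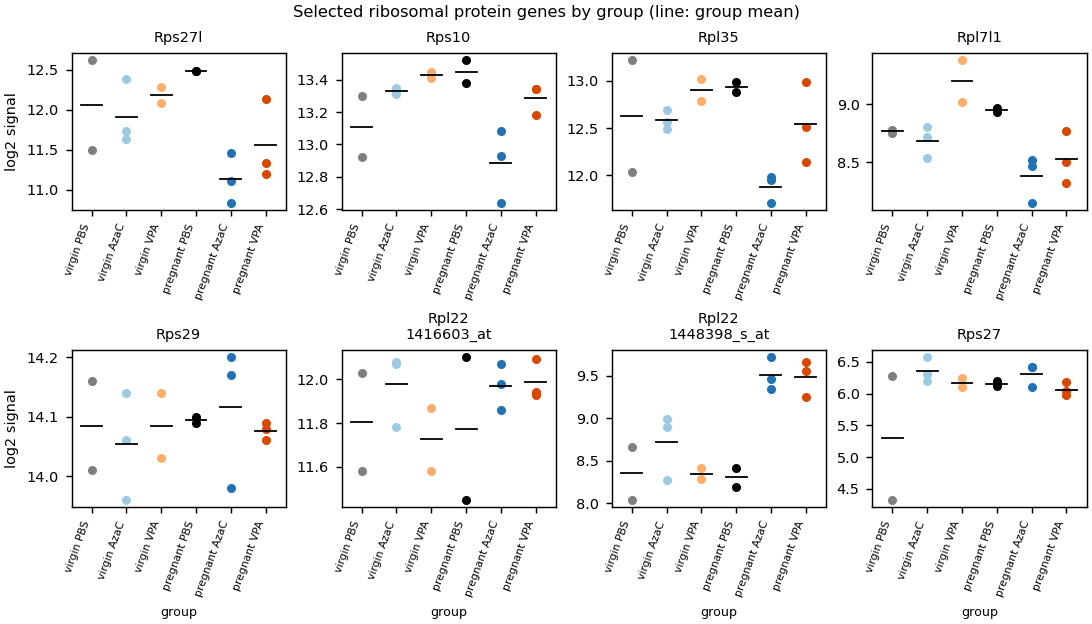
Log2 signal (vertical axes, which differ between panels and do not start at 0) of 7 ribosomal protein genes in the 6 groups, with 2 probe sets for Rpl22. Points are arrays and lines are group means; Rps27l, Rps10 and Rpl35 are lower on all pregnant AzaC arrays than on the pregnant PBS arrays, while Rps29 is level within 0.24.

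The 95% interval of the AzaC difference in pregnant mice lay within -0.5 and 0.5 for 18 of 48 ribosomal protein genes (37.5%) and for 5.65% of all genes. It lay within -1 and 1 for 36 of them (75%) and for 44.3% of all genes. The others, Rps27l and Rpl35 among them, were not bound to that range. These are intervals of the measured signal, and how far bright probe sets can follow a change was not tested.

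VPA in pregnant mice gave no lean of this kind. None of the 48 passed an adjusted p of 0.05 (5.98% of all genes did, 451 higher and 290 lower, or 374 and 418 with arrays shifted to one median and 370 and 392 after quantile normalization), and 3 had an unadjusted p under 0.05, against 24.9% of all genes. The median difference was -0.01, against 0.06 over all genes, with 28 of 48 below 0 (45.2% of all genes). All 3 VPA arrays lay below both PBS arrays for 9 genes (18.8%, against 17.6% of all genes) and above them for 7 (14.6%, against 25.7%), the stalk genes Rplp0 and Rplp2 among the latter. Shifting the arrays to one median moved the median of all genes to -0.07 and that of these genes to -0.13.

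Rpl12 had the lowest p with VPA. It read 7.47, 7.50 and 7.26 with pregnant VPA beside 8.48 and 8.84 with pregnant PBS. The groups did not overlap, and the difference was -1.25 ± 0.48 (SE; adjusted p = 0.136); fitting only these arrays took it past the threshold (adjusted p = 0.0484). Rps27l was at 11.20, 11.33 and 12.14 with VPA, all below the controls, with a difference of -0.92 ± 0.37 (SE; adjusted p = 0.154). Rpl7l1 followed (-0.42, adjusted p = 0.19). Rps6 (0.31), Rplp0 (0.29), Rps10 (-0.16) and Rpl35 (-0.39) did not pass. AzaC and VPA were compared with the same PBS arrays, so the low values of Rps27l, Rpl7l1 and Rpl12 under both are not separate evidence.

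The 2 drugs were compared directly. The PBS arrays do not enter these differences, but they enter the spread behind the p-values. In pregnant mice 42 of 48 ribosomal protein genes had a lower mean with AzaC than with VPA, with a median of -0.17, against -0.03 and 54.5% below 0 over all genes. All 3 AzaC arrays lay below all 3 VPA arrays in 14 of 48 (29.2%), against 5.54% of all genes, and in none above, against 2.52%. These 14 were Rpl8, Rpl11, Rpl19, Rpl27, Rpl35, Rpl37, Rpl37a, Rps2, Rps3, Rps6, Rps7, Rps10, Rps19 and Rps24. Some gaps were very narrow. The highest AzaC and lowest VPA arrays read 11.75 and 11.76 for Rpl11 and 13.27 and 13.28 for Rps24, but 8.47 and 8.67 for Rps6. limma called 0 of 48 and 0 of all 12393 genes; unadjusted p-values under 0.05 were found for 4 of 48 and for 3.78% of all genes. The median stayed between -0.20 and -0.10 in every alternative run.

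Rps10 had the lowest p in this comparison, with 12.93, 13.08 and 12.64 under AzaC and 13.18, 13.34 and 13.34 under VPA (difference -0.40 ± 0.15 SE; adjusted p = 1). Rps6 read 8.20, 8.47 and 8.47 under AzaC and 8.67, 9.04 and 9.29 under VPA, a difference of -0.62. In both genes each AzaC array was below each VPA array, yet neither passed. In virgin mice the median difference between the drugs was -0.03, with 29 of 48 below 0 (47.7% of all genes). All AzaC arrays lay above all VPA arrays in 8 of 48 (16.7%, against 13.1% of all genes) and below them in 6 (12.5%, against 13.7%). There limma again called none of the 48 and none of all genes (unadjusted p under 0.05 in 1 of 48 and in 6.56% of all genes), with Rpl7l1 lowest in p (-0.51, adjusted p = 0.744).

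In virgin mice the drug comparisons turned on 1 control array. Virgin PBS replicate 1 lay below the 15-array median of the gene for 45 of 48 ribosomal protein genes and was the lowest of all arrays for 24 of them (50%), while it was lowest for 9.55% of all genes. The median deviation of the 48 was -0.34 on it and lay between -0.14 and 0.05 on the other 14 arrays. The median deviation of all genes on it was -0.05. Its luminal marker mean (12.50) was near that of virgin PBS replicate 2 (12.49). Its adipocyte marker mean (9.14) was the highest of the 15 arrays. Virgin PBS replicate 2 had the highest Gapdh 3′ to 5′ difference of all arrays (1.23, against -0.06 on replicate 1). The part of the marker means in the low values was not tested. The Gapdh difference entered 1 alternative run as a covariate. In it the virgin medians were 0.25 with AzaC and 0.28 with VPA, larger than in the main model below. Its part in the low values of replicate 1 was not tested beyond that.

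**Figure D3:**
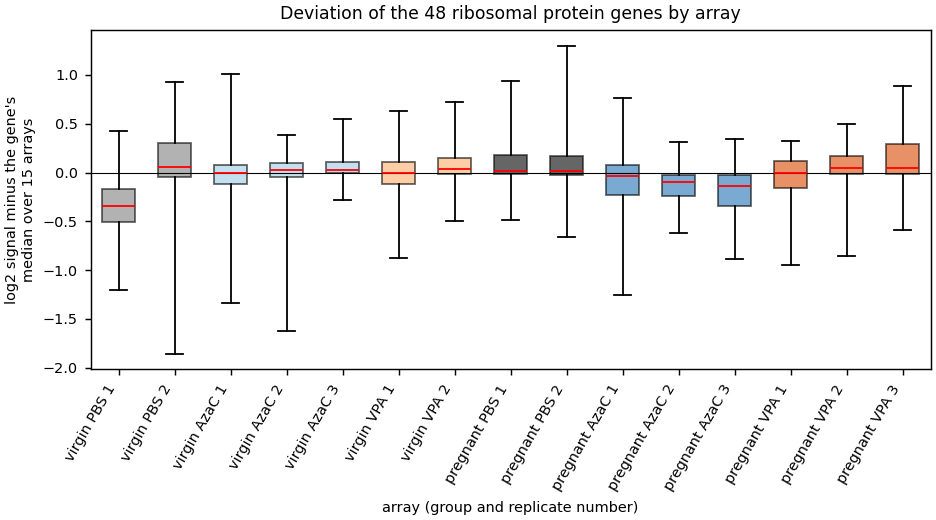
Log2 signal minus the gene's own median over 15 arrays (vertical axis) for the 48 ribosomal protein genes on each array (horizontal axis). Boxes span the quartiles, red lines are medians and whiskers reach the lowest and highest gene; the box of virgin PBS replicate 1 lies lowest, with a median of -0.34, and those of the pregnant AzaC arrays lie slightly under 0, with medians of -0.04, -0.10 and -0.14.

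With both virgin controls, AzaC gave a median difference of 0.15 in virgin mice with 40 of 48 above 0 (57.7% of all genes were), and VPA a median of 0.16 with 42 of 48 above 0 (55.1% of all genes). Without virgin PBS replicate 1 these medians became -0.05 and -0.04, and without replicate 2 they became 0.33 and 0.36. limma called none of the 48 for either drug, and 0 genes of all for AzaC and 1 (0.00807%) for VPA. At an unadjusted p under 0.05 there were 3 of 48 for AzaC (6.85% of all genes) and 2 of 48 for VPA (6.87%). All AzaC arrays lay above both controls in 12 of 48 (25%, against 11.5% of all genes), and all VPA arrays in 15 (31.2%, against 20.8%). They lay below both controls in 0 of 48 for AzaC (6.8% of all genes) and in 1 for VPA (2.08%, against 15%).

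Rps27 had the lowest p for virgin AzaC, with 6.30, 6.57 and 6.19 beside PBS values of 6.28 and 4.33 (difference 1.05 ± 0.41 SE; adjusted p = 0.714). The controls disagreed by more than the groups. Without virgin PBS replicate 1 the remaining control was the array at 4.33, and the difference of 2.02 then passed (adjusted p = 0.00267). For virgin VPA the lowest p was that of Rps7 (0.48 ± 0.19 SE; adjusted p = 0.655), which read 12.45 and 12.92 with PBS and 13.16 and 13.17 with VPA.

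The stage labels were compared within each injection. With PBS, the median pregnant minus virgin difference was 0.20, with 44 of 48 above 0 against 53% of all genes. None of the 48 passed, as did 1 gene of all (0.00807%), and 1 of 48 had an unadjusted p under 0.05 (4.2% of all genes). Without virgin PBS replicate 1 the median was -0.01 and 23 of 48 lay above 0. Both pregnant arrays lay above both virgin arrays in 13 of 48 (27.1%, against 15% of all genes) and below them in 1 (2.08%, against 13.4%). Rpl11 had the lowest p: it read 11.08 and 11.83 with virgin PBS and 12.12 and 11.83 with pregnant PBS (0.52 ± 0.22 SE; adjusted p = 1). Its groups met at 11.83.

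With AzaC, pregnant arrays were lower than virgin arrays for 39 of 48 genes, against 47.9% of all genes. The median was -0.11, against 0.02, and it stayed between -0.17 and -0.07 in every alternative. Neither PBS group enters this difference, though both enter the spread behind its p-values. The pregnant AzaC arrays are those compared above with PBS and with VPA, so the lower medians there and here are not separate evidence. All 3 pregnant arrays lay below all 3 virgin arrays in 13 of 48 (27.1%, against 14%) and above them in none (8.81% of all genes). No member passed, against 1.23% of all genes, and 7 of 48 had an unadjusted p under 0.05 (18.4% of all genes). Rpl27 was lowest in p, at 13.14, 13.14 and 13.08 in virgin and 12.67, 12.72 and 12.63 in pregnant AzaC arrays, with a difference of -0.45 ± 0.13 (SE; adjusted p = 0.11). The gap between the groups was several times their spread, though the gene did not pass over all 12393.

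With VPA the stages did not differ on balance: the median was 0.00 and 26 of 48 lay above 0, against 54.1% of all genes. Pregnant arrays lay above all virgin arrays in 8 of 48 (16.7%, against 26.2%) and below them in 9 (18.8%, against 19.8%). None of the 48 passed, against 6.66% of all genes, and 1 had an unadjusted p under 0.05 (25.1% of all genes). That one was Rpl7l1, which read 9.38 and 9.02 in virgin and 8.32, 8.50 and 8.77 in pregnant VPA arrays (-0.67 ± 0.19 SE; adjusted p = 0.0544). Its groups did not overlap, and it passed under 5 of 15 alternatives, with adjusted p from 0.0331 to 1 over all 15.

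Last, the drug differences at the stages were set against each other. For AzaC, pregnant minus virgin, 43 of 48 lay below 0 (49.8% of all genes) with a median of -0.34, and for VPA 35 of 48 (47.4%) with a median of -0.15. No member passed in either test, against 0 genes of all for AzaC and 0.315% for VPA. At an unadjusted p under 0.05 there were 7 of 48 (12.8% of all genes) and 2 of 48 (18.9%). Rpl27 had the lowest p for AzaC (-0.72 ± 0.20 SE; adjusted p = 0.202) and Rpl7l1 for VPA (-0.85 ± 0.28 SE; adjusted p = 0.138). Without virgin PBS replicate 1 the medians were -0.11 and 0.03, and without replicate 2 they were -0.49 and -0.30.

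**Figure D4:**
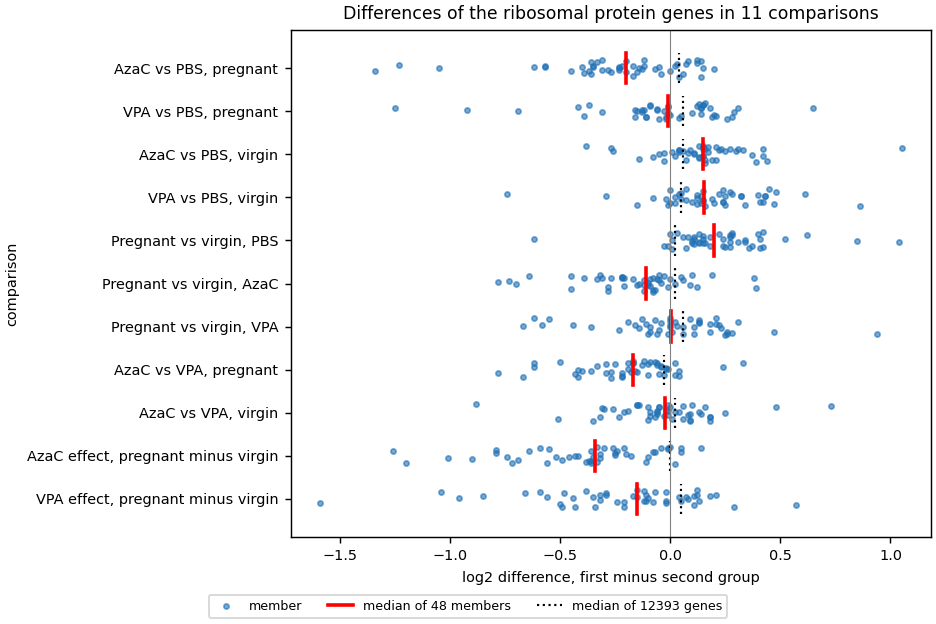
Log2 difference of the first minus the second group (horizontal axis) for the 48 ribosomal protein genes in 11 comparisons, with points for genes, red lines for their medians and dotted lines for the medians of 12393 genes. The medians of the members lie left of the dotted line for AzaC in pregnant mice (-0.20), AzaC against VPA in pregnant mice (-0.17) and pregnant against virgin with AzaC (-0.11). They also lie left of it for both drug effects, pregnant minus virgin, furthest for AzaC. By smaller distances they do so for VPA in pregnant mice, the stages with VPA and the drugs in virgin mice. In the other comparisons they lie right of it.

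Probe sets of a gene did not always read alike. Rpl22, a protein of the large subunit that binds RNA, is the plainest case. Its leading probe set read 11.45 and 12.10 with pregnant PBS and 12.07, 11.98 and 11.86 with pregnant AzaC, so the groups overlapped (difference 0.20). A second, dimmer probe set, of the type whose probes match several transcripts, read 8.42 and 8.19 with pregnant PBS, 9.46, 9.35 and 9.72 with AzaC and 9.66, 9.56 and 9.25 with VPA. On that probe set all drug arrays lay above the controls, by 1.21 and 1.19. When the probe sets of each gene were averaged, Rpl22 passed for both drugs. For Rpl35, 5 bright probe sets gave differences with AzaC from -1.41 to -1.05, while a dim one gave 0.39. The 102 probe sets that carry several symbols had a median level of 12.72, a median AzaC difference in pregnant mice of -0.10 and a median VPA difference of 0.07.

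The genes around the ribosome were described from lists on its assembly and use. Of 57 ribosome biogenesis and nucleolar factors, 11 fell and 0 rose with AzaC in pregnant mice, and the median of the list was -0.45, against 0.04 over all genes. Of all genes, 3.81% fell and 3.76% rose with AzaC, and 2.34% fell and 3.64% rose with VPA; the counts of this and the next lists are to be read beside these shares. As above, both drugs were set against the same PBS arrays. Rrp12, which serves the export and maturation of ribosomal subunits, had a mean of 7.73 ± 0.39 (SD, n = 2) with PBS and of 5.42 ± 0.11 (SD, n = 3) with AzaC, and fell by 2.32 on the log2 scale (SE 0.28; adjusted p = 0.0062, limma). Nolc1, a nucleolar chaperone, fell by 1.62 (SE 0.31; adjusted p = 0.0159). With VPA 6 of the 57 fell and 1, Sbds, which acts in the maturation of the large subunit, rose. Rrp12 fell by 1.90 (adjusted p = 0.0108) and Nolc1 by 1.61 (adjusted p = 0.0192). For the VPA effect, pregnant minus virgin, Rrp12 was the 1 gene of the list past the threshold (-2.54, adjusted p = 0.0393). PBS does not enter the difference between the stages under a drug. There Rrp12 fell with VPA (-1.59, adjusted p = 0.0179) and AzaC (-1.25, adjusted p = 0.0414), and Nolc1 with VPA (-1.34, adjusted p = 0.0318). Of all genes 6.66% passed there with VPA and 1.23% with AzaC. The pregnant drug arrays are the same, so these are not separate evidence.

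These counts moved with single arrays. Of the biogenesis genes, 0 fell with AzaC without pregnant PBS replicate 1, 1 without pregnant PBS replicate 2, 2 without AzaC replicate 1, 12 without AzaC replicate 2 and 1 without AzaC replicate 3, and 0 fell when only the arrays compared were fitted. With VPA, 0 and 1 fell without either PBS array and 2 without any 1 of the VPA arrays. Over all genes, the AzaC calls dropped from 938 to 16 and 14 without either PBS array but rose to 1335 without AzaC replicate 2, and the VPA calls dropped from 741 to 24 and 20. The medians of the list were between -0.54 and -0.39 with AzaC in all of these. Of all 12393 genes 472 fell with AzaC as reported, and 105, 594 and 88 without AzaC replicate 1, 2 or 3. None of all genes fell when only the arrays compared were fitted. With VPA 290 of all genes fell as reported, and 85, 98 and 128 without VPA replicate 1, 2 or 3.

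Translation initiation factors numbered 31, of which 4 fell with AzaC in pregnant mice: Eif2b4 (-0.93, adjusted p = 0.0329), Eif3b (-0.81, adjusted p = 0.0319), Eif5a and Eif2s2. With VPA 1 of 31 rose, near the share of all genes: Eif3f (0.91, adjusted p = 0.0428). Of 23 genes of mTORC1 signalling and TOP mRNA control, Sesn3, a sestrin that restrains mTORC1, rose by 1.97 with AzaC (adjusted p = 0.01) and by 1.98 with VPA (adjusted p = 0.0108). Eif4ebp2, a repressor of cap-dependent initiation, rose by 1.09 and 1.22. Rheb, the small GTPase that activates mTORC1, fell by 0.98 and 0.96. It lay outside the naming rule and was added after its values were seen. The rest of the 23 did not pass with either drug. In pregnant against virgin VPA arrays Sesn3 (1.86, adjusted p = 0.0148), Eif4ebp2 (1.12, adjusted p = 0.0264), Rheb (-0.81, adjusted p = 0.0276) and Eif3f (1.00, adjusted p = 0.0318) passed too. With AzaC, Rheb (-0.77, adjusted p = 0.0453) and Lamtor2 (-1.01, adjusted p = 0.0482) did. Without either pregnant PBS array none of the initiation or mTORC1 genes passed for either drug.

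Of 74 mitochondrial ribosomal proteins, which belong to a separate ribosome inside mitochondria, 6 fell with AzaC, Mrps25 (-1.25, adjusted p = 0.0283) and Mrps7 (-1.07, adjusted p = 0.0178) furthest, and 1 with VPA (Mrpl18, -0.91, adjusted p = 0.0246), a share below that of all genes. Their median AzaC difference was -0.42, beside -0.20 for the cytosolic genes, and no test of that difference was made. In pregnant against virgin arrays Mrpl18 was among those that fell with VPA (-0.98, adjusted p = 0.0202), and Mrps7 fell with AzaC (-0.95, adjusted p = 0.0396). Without either pregnant PBS array 0 of the 74 passed. None of 13 RNA polymerase I genes and none of 13 elongation factors and other TOP mRNAs passed with either drug. In these the lowest p belonged to Rrn3 (-0.67, adjusted p = 0.0827) and Eef1d (-0.70, adjusted p = 0.0649) with AzaC and to Taf1b (0.74, adjusted p = 0.114) and Vim (0.95, adjusted p = 0.12) with VPA. Fau, the ribosomal protein gene outside the symbol rule, had a level of 12.80 and differences of -0.12 and 0.07.

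**Figure D5:**
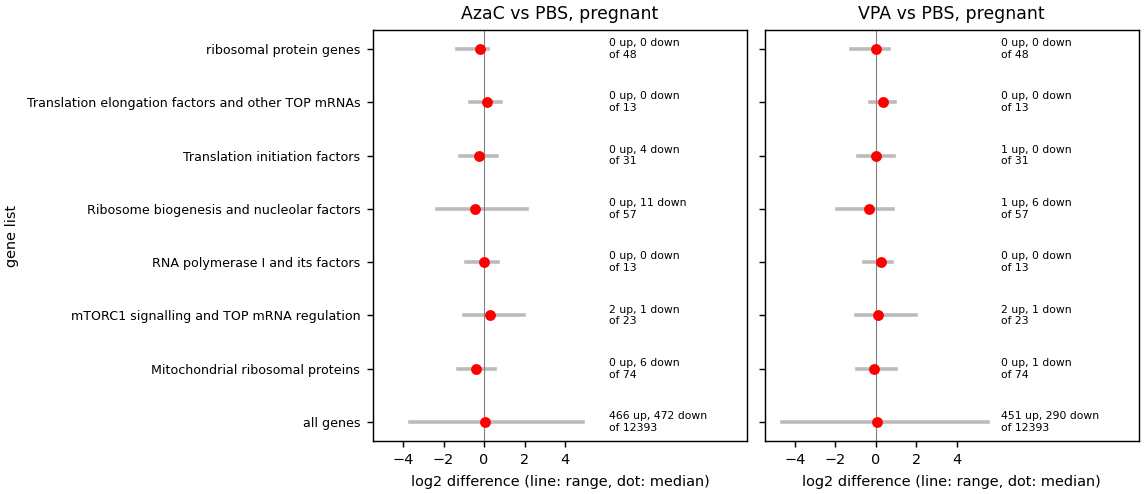
Log2 difference from PBS (horizontal axis) in pregnant mice for AzaC (left) and VPA (right), by gene list (vertical axis). Grey lines span the lowest to the highest gene, red dots are medians, and the text gives the genes past an adjusted p of 0.05 in each direction; the ribosomal protein genes have 0 in both, and the biogenesis list 11 lower with AzaC.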

How the data were processed

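Gene expression was read from 15 arrays. The deposited table holds the authors' processed log2 signals for 22690 probe sets. They were taken as log2 from their range (0 to 14.48, array medians 7.22 to 7.47); the log base, summary, background and normalization are not given in the sources used here. Values were used as deposited, without a filter on dim genes. The platform annotation gave a single symbol to 20380 probe sets, several to 691 and none to 1619.

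All 15 arrays entered 1 limma model with a mean for each of the 6 groups (lmFit, then eBayes; limma version 3.58.1, R 4.3.3). It had 9 residual and 2.31 prior degrees of freedom; tests were two-sided, adjusted by Benjamini-Hochberg over 12393 genes, with a threshold of 0.05. In 11 comparisons the text names passing members, or the one with the lowest p, and a set chosen for known roles; of the other lists up to 2 passing genes with the largest change, or the lowest p. Rps10, Rpl35 and Rpl27 with AzaC, the subunit classes, the split at a level of 12, the motifs and the use of probe sets with several symbols were chosen after values or sequences were seen. The members and lists were chosen with earlier results of these data known. Deviations of same-numbered arrays correlated across genes at r from -0.174 to 0.333. Arrays of different numbers were not set beside them, so a shared batch or pairing was not tested. The main model used no pairing. No arrays were identical; their small number limits the precision.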

Additional observations from a re-analysis of the deposited data

Results flagged for a closer look

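The difference between AzaC and PBS ran in opposite directions at the stage labels when the 48 ribosomal protein genes were summed as the median deviation of each array. The 3 pregnant AzaC arrays lay 0.06 to 0.16 below the mean of the pregnant PBS arrays (differences of -0.16 to -0.06), and the 3 virgin AzaC arrays lay 0.15 to 0.17 above the mean of the virgin PBS arrays. The pregnant minus virgin difference was -0.27, and it was not tested. The virgin PBS mean was formed from arrays at -0.34 and 0.05, so the virgin side rests on virgin PBS replicate 1. Gene by gene, every pregnant AzaC array below and every virgin AzaC array above the PBS mean was found for 13 of 48 genes (27.1%, against 6.79% of all genes), and with VPA for 10 (20.8%, against 12.9%).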

How the results depend on the processing

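No result on the members changed sign past the threshold in any alternative run. The count of ribosomal protein genes past the threshold for AzaC in pregnant mice was 0 as reported, beside 938 of all 12393 genes. It became 3 with arrays shifted to one median (1083 of all genes) and 3 without genes of a mean under 6 (1428 of 8826). It was 2 with the mean of all probe sets (894) and 1 without _x_at or _s_at probe sets (937 of 12106). With trend and robust eBayes it was 3 (1309), and with the Gapdh covariate 4 (1623). Leaving out each AzaC array it ranged from 0 to 2 (138 to 1335 of all genes). For VPA in pregnant mice it became 1 with the mean of all probe sets and 1 with only the arrays compared. For pregnant against virgin it became 1 (Rpl35) with the Gapdh covariate under AzaC (359 of all genes). Under VPA it became 1 (Rpl7l1) with quantile normalization (876 of all genes), shifted arrays (945) or the filter at 6 (1268 of 8826). The same gene passed with trend and robust eBayes (1216 of all genes) or the Gapdh covariate (1318). The count also became 1 with the mean of probe sets (Rpl22, beside 792 of all genes) and without _x_at or _s_at probe sets (Rps20, beside 823 of 12106). Leaving out each array it ranged from 0 to 1 for AzaC and for VPA in virgin mice, for the stages with PBS and for both stage differences of the drugs; the 1 was Rps27, without virgin PBS replicate 1.

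Shifting arrays to one median moved the median difference to -0.30 (AzaC, pregnant), -0.13 (VPA, pregnant) and -0.11 (stages with VPA). Quantile normalization moved it to 0.02 (AzaC, virgin) and -0.23 (AzaC, pregnant minus virgin), and the Gapdh covariate to 0.25 and 0.28 (AzaC and VPA, virgin). Probe sets with several symbols, an alternative chosen after seeing the data, gave -0.20 for AzaC, pregnant minus virgin. Leaving out each array the medians ranged from -0.05 to 0.33 (AzaC, virgin), -0.04 to 0.36 (VPA, virgin), -0.01 to 0.39 (stages with PBS), -0.49 to -0.11 (AzaC, pregnant minus virgin) and -0.30 to 0.03 (VPA, pregnant minus virgin); the ends came from leaving out either virgin PBS array. Causes were not tested. In all, 152 of 174 alternative counts stayed at 0 as reported, and 145 of 163 medians moved by no more than 0.10. That limit is the standard deviation of the array medians within groups. It is as large as several of the reported medians, so a median within it could still change sign. With the replicate number as a block, 0 members passed in each comparison and the AzaC median in pregnant mice was -0.20. Of the biogenesis factors 6 then fell with AzaC and 2 with VPA, beside 281 and 125 of all 12393 genes. With the Gapdh covariate 19 biogenesis factors, 18 mitochondrial ribosomal proteins and 9 initiation factors fell with AzaC, beside 11, 6 and 4 as reported. Over all 12393 genes 843 fell with that covariate, beside 472 as reported, so calls grew outside these lists too. Groups of 2 or 3 arrays leave wide intervals for dim members.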
